A study of Mus musculus with 26 samples.

Results

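Otx2, Crx, Nrl, Npr3, Eomes, Gfi1, Gfi1b, Impg2, Gabra5 and Prom1 are 10 genes whose human counterparts are used to mark Group 3 medulloblastoma, or the photoreceptor program that many of these cerebellar tumors express. They were chosen by name, and every probe set that carried 1 of these symbols and no other was taken. This gave 13 of the 45037 probe sets, which read 9 of the 10 genes. Impg2, a gene of the matrix around photoreceptors, had no such probe set and is not analysed here.

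The 26 arrays measured RNA of C57BL/6 mouse cells and tumors, all labelled Trp53-/-, Cdkn2c-/-, in a study of pemetrexed and gemcitabine as a drug pair. Array titles began with the letters dka or mmm, whose meaning the labels do not give, and groups were compared within each. The 12 dka arrays held 3 Group3 secondary tumors, 3 Group3 tumors, 3 Group3 neurospheres and 3 Trp53 Cdkn2c neurospheres. The 14 mmm arrays held Group3 tumors given pemetrexed plus gemcitabine (3), gemcitabine (3) or pemetrexed (2), untreated Group3 tumors (2) and Group3 neurospheres (4). Every group but the Trp53 Cdkn2c neurospheres also had Myc in its genotype. Neurospheres are floating cultures of neural cells. The labels call the Trp53 Cdkn2c neurospheres granule neural progenitors and the Group3 neurospheres medulloblastoma cells, and the series' design names P7 for cells without Myc. How Myc was introduced, what a secondary tumor is, the host, the dose and the time are not stated. The labels do not say whether arrays were separate animals or cultures, so p values measure only the spread between arrays.

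OTX2 is a homeodomain factor that drives the photoreceptor lineage in the retina and is highly expressed in human Group 3 and Group 4 medulloblastoma. In the retina it acts upstream of CRX, and CRX works with the leucine zipper factor NRL on rod and cone genes. NPR3 clears natriuretic peptides from the cell surface, EOMES is a T-box factor of unipolar brush cells and intermediate progenitors, GABRA5 is a GABA-A receptor subunit, and PROM1 is a membrane protein of photoreceptor discs and of many stem and progenitor cells. GFI1 and GFI1B are zinc finger repressors that are switched on by rearranged enhancers in a share of human Group 3 tumors.

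Values below are deposited log2 intensities, on which a difference of 1 is a doubling of signal. No detection call came with them, so the median of each array, between 4.65 and 4.82, served as a yardstick for dim signal. The minimum and maximum of the arrays ran from 2.56 to 13.9 under dka, but from -0.41 to 16.1 under mmm, so sizes are not directly comparable between the codes. Of the mmm arrays, Group3 neurosphere replicate 7 stood apart with a range of 2.64 to 13.7, like the dka arrays, while the lowest value of the other 13 was at most 1.47 and the highest at least 14.3. The mmm comparison of tumors with neurospheres called the same number of members, 4, without that array, and values without it stand beside the changes of the members. A probe set was called changed when its limma adjusted p over all 45037 probe sets was under 0.05.

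Otx2 was bright in the neurospheres without Myc and dim in every Group3 culture. Crx, Nrl, Gfi1 and Gfi1b were dim on all arrays. Npr3 and Eomes, each by at least 1 probe set, rose in Group3 tumors against Group3 neurospheres under both codes, Prom1 under dka and Gabra5 under mmm. No member passed the test between drug-treated and untreated tumors.

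**Figure D1:**
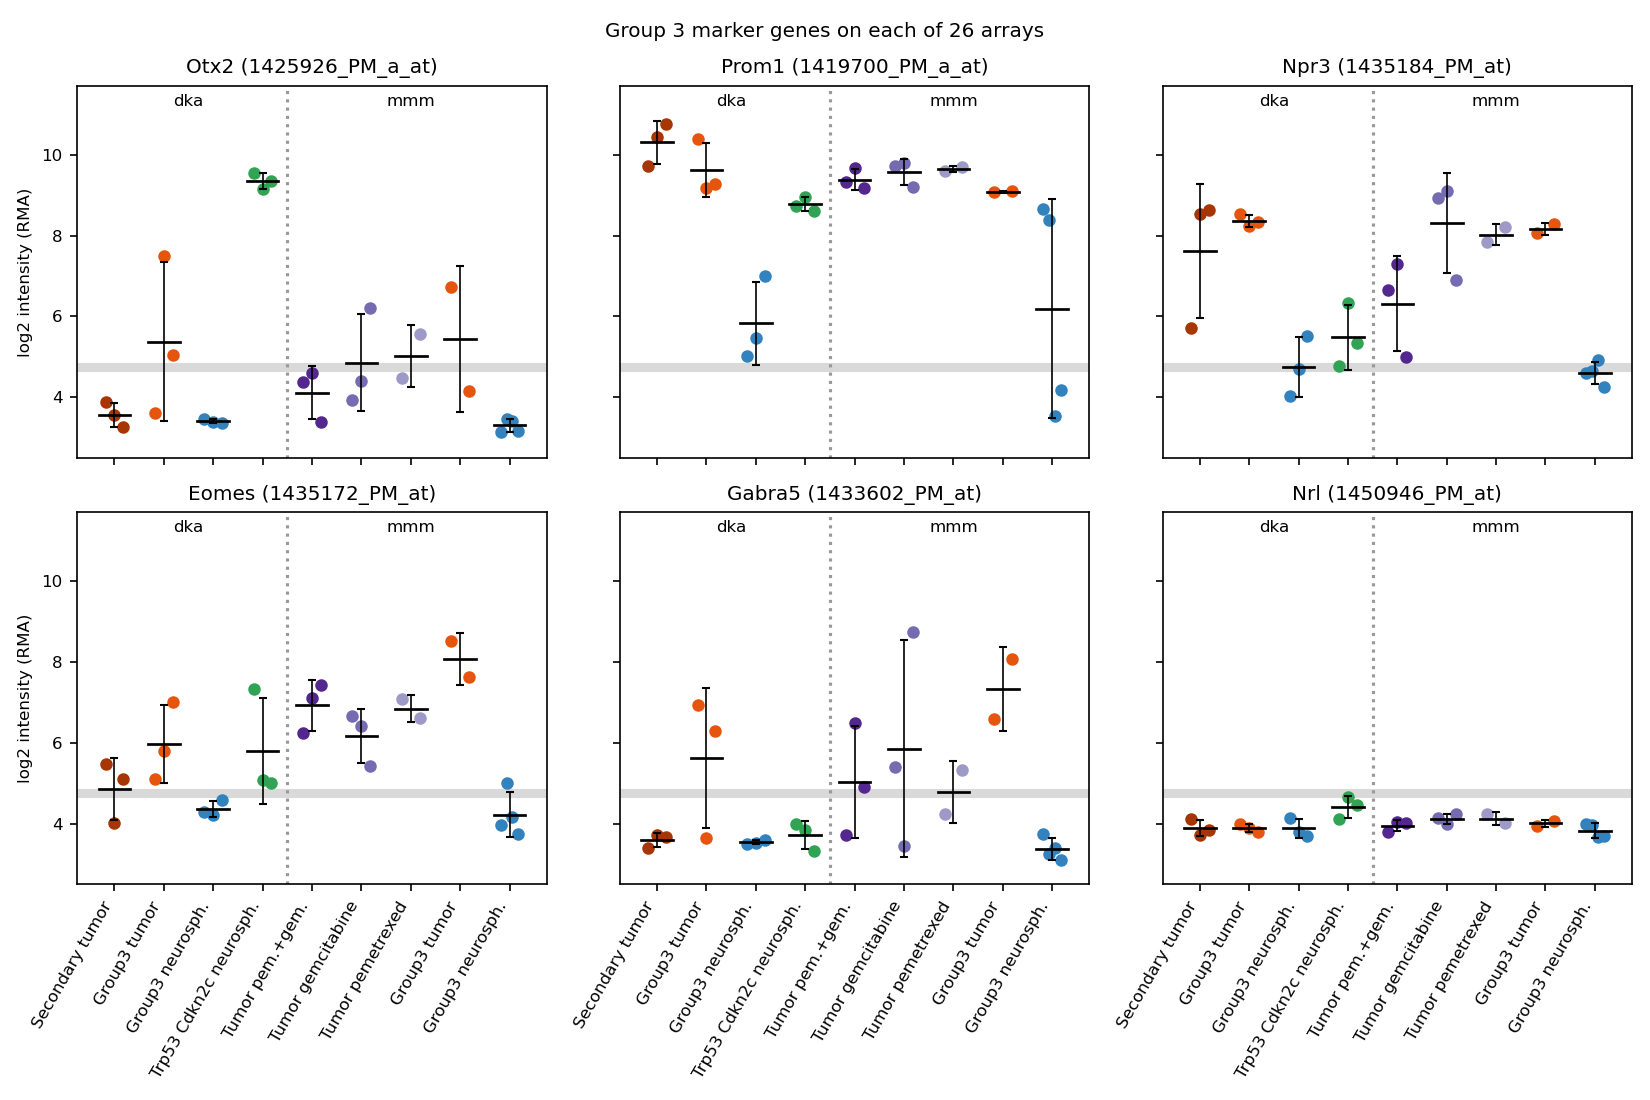
Log2 intensity of 6 member probe sets on each of the 26 arrays, with dka groups left of the dotted line and mmm groups right of it. Points are arrays, the long bar is the group mean, the whisker is the SD, and the grey band is the range of array medians (4.65 to 4.82). Otx2 exceeded 9 only in Trp53 Cdkn2c neurospheres, and Nrl stayed within or below the grey band everywhere.

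Of the 13 member probe sets, 4 fell and 0 rose in Group3 neurospheres against Trp53 Cdkn2c neurospheres, where 20.1% of all probe sets were called, 10.4% as lower. That count rests on few arrays, since it was 1 to 2 when any 1 array was left out and 2 in a fit of the dka arrays alone. In Group3 tumors against Trp53 Cdkn2c neurospheres 1 rose and 2 fell, against 14.6% of all called. In Group3 tumors against Group3 neurospheres 4 rose and 0 fell under dka (13.8% of all called in either direction, 6.53% higher), and likewise 4 and 0 under mmm (17.5% and 8.1%). Secondary tumors against Group3 neurospheres gave 4 higher and 0 lower (21.9% and 11.1%). These 3 counts came from different mixes of genes, and the dka comparisons share their control arrays. Secondary tumors against Group3 tumors gave 0 calls with limma, where 2.28% of all probe sets were called. At an unadjusted p under 0.05 there were 4, beside 6246 of all 45037 probe sets. The members' shares called, 23.1% to 30.8% where any passed, rest on 13 probe sets of 9 genes and are no result about the genes as a group.

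**Figure D2:**
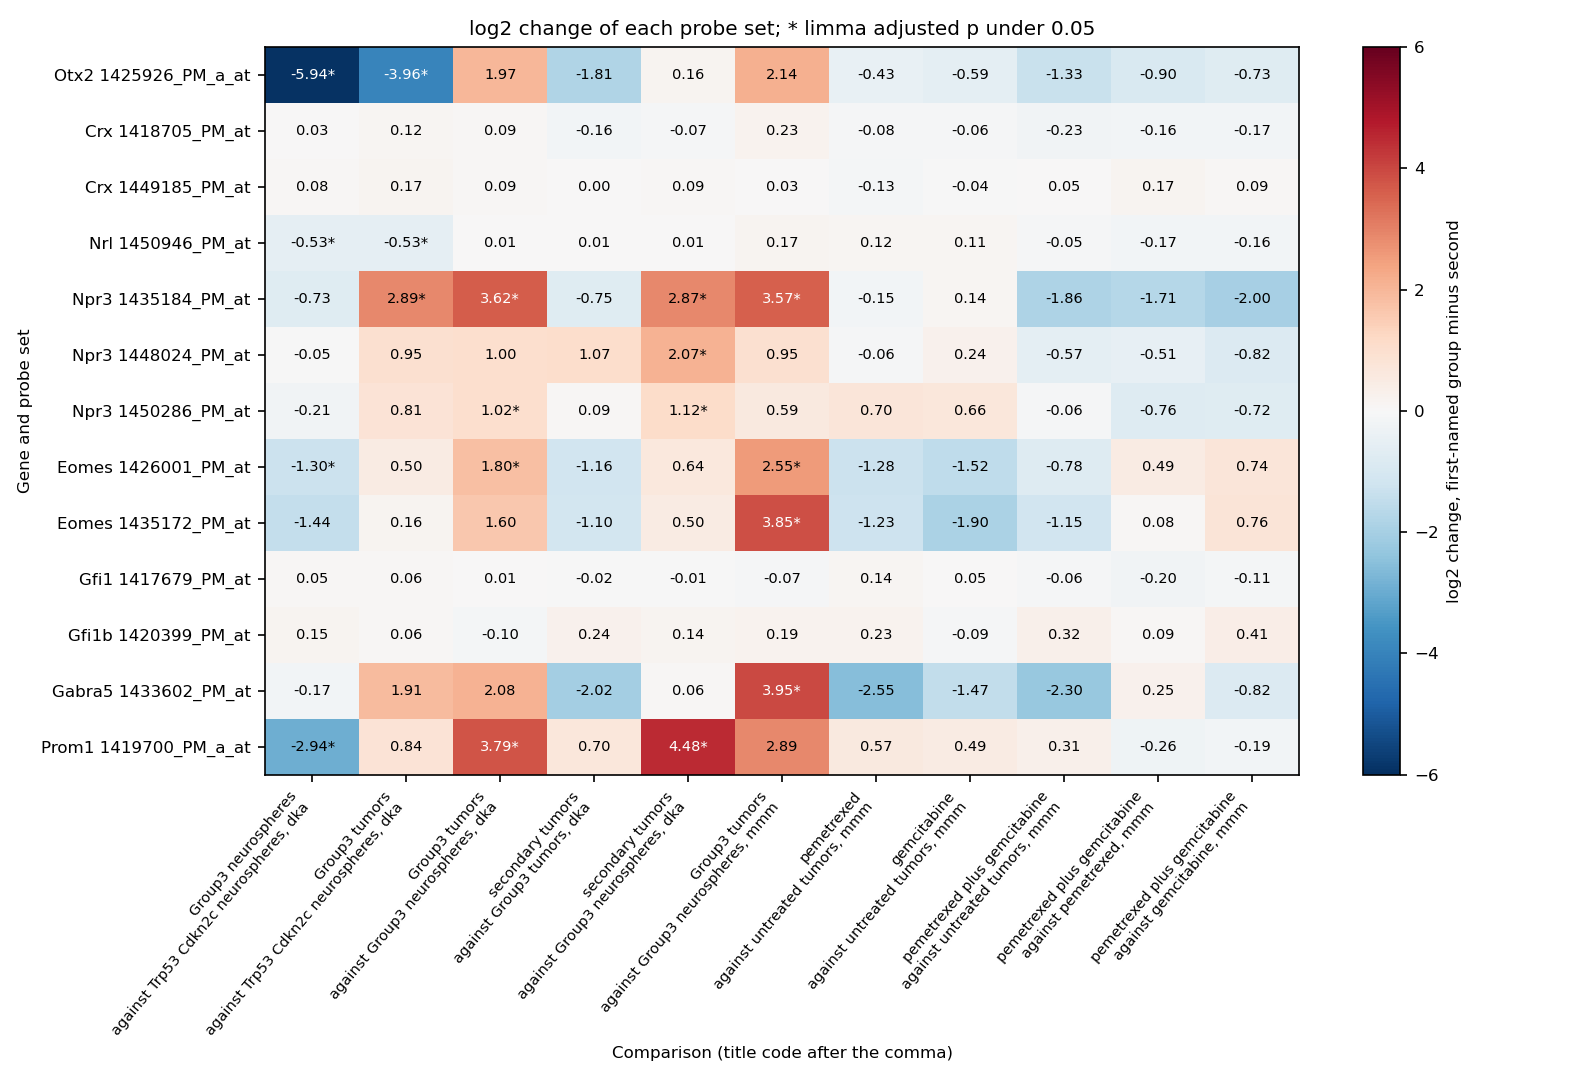
Log2 change of each of the 13 member probe sets (rows) in the 11 comparisons (columns), as the first-named group minus the second, with an asterisk where the limma adjusted p over all probe sets was under 0.05. The Otx2 cell at -5.94 is the farthest from 0, and no cell of the 5 drug comparisons carries an asterisk.

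Otx2 (1425926_PM_a_at) had values of 3.46, 3.40 and 3.36 in dka Group3 neurospheres, against 9.54, 9.14 and 9.34 in Trp53 Cdkn2c neurospheres. The groups lay far apart, with all Group3 cultures below their array medians, and the log2 change was -5.94 (SE 0.73, limma adjusted p = 9.66e-06). In dka Group3 tumors it stood at 3.60, 7.49 and 5.03, also below every Trp53 Cdkn2c culture (log2 change -3.96, SE 0.73, limma adjusted p = 0.000969). Neither call was lost when any 1 array was left out. Its paralog Otx1, another head-patterning homeodomain factor, fell in the same comparisons, by 4.71 on the log2 scale in Group3 neurospheres (SE 0.42, adjusted p = 1.66e-07) and by 5.17 in Group3 tumors (SE 0.42, adjusted p = 8.57e-08).

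The tumors varied in Otx2 far more than the cultures did. The dka tumors had a mean of 5.38 ± 1.97 (SD, n = 3) and the dka Group3 neurospheres 3.41 ± 0.05 (n = 3), a log2 change of 1.97 that did not pass (SE 0.73, limma adjusted p = 0.0831). Tumor replicate 1 was as dim as the cultures, and without it the change was 2.86 (adjusted p = 0.0134). Under mmm the untreated tumors had 6.72 and 4.17, against 3.15, 3.46, 3.42 and 3.18 in Group3 neurospheres. Both tumors lay above all 4 cultures, but by unequal amounts, and the change did not pass (log2 change 2.14, SE 0.78, adjusted p = 0.0638). Without neurosphere replicate 7 it was 2.10 (adjusted p = 0.11). Without tumor replicate 5, the dimmer, it was 3.42, a value that rests on 1 tumor array. Secondary tumors had 3.87, 3.56 and 3.28, against 3.60, 7.49 and 5.03 in Group3 tumors. The secondary tumors were all dim and overlapped only the dimmest tumor (log2 change -1.81, SE 0.73, adjusted p = 0.256). In order of their dka means, Trp53 Cdkn2c neurospheres stood apart at the top, and tumors, secondary tumors and Group3 neurospheres each overlapped their neighbour.

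Choroid plexus, the epithelium that makes cerebrospinal fluid, also expresses Otx2, and its marker Ttr (transthyretin) varied widely among tumors. Ttr was between 3.56 and 3.92 in the Trp53 Cdkn2c neurospheres. Among tumors the highest Ttr values, 12.2 in gemcitabine replicate 2 and 11.6 in secondary tumor replicate 1, came with Otx2 at 4.41 and 3.87. Group3 tumor replicate 2, with the highest Otx2 of any tumor at 7.49, had Ttr at 9.25, and replicate 3, with Otx2 at 5.03, had Ttr at 3.66. Of the 10 measured choroid plexus markers, 0 passed in mmm tumors against Group3 neurospheres (21.0% of all genes called). Under dka 1 fell (Sostdc1, -1.69) and 0 rose (17.3%). Against Trp53 Cdkn2c neurospheres, 1 of the 10 rose and 2 fell in Group3 neurospheres (22.2%). In Group3 tumors against those cultures 0 rose and 1 fell (15.4%). The part of choroid plexus in the Otx2 values was not tested.

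**Figure D3:**
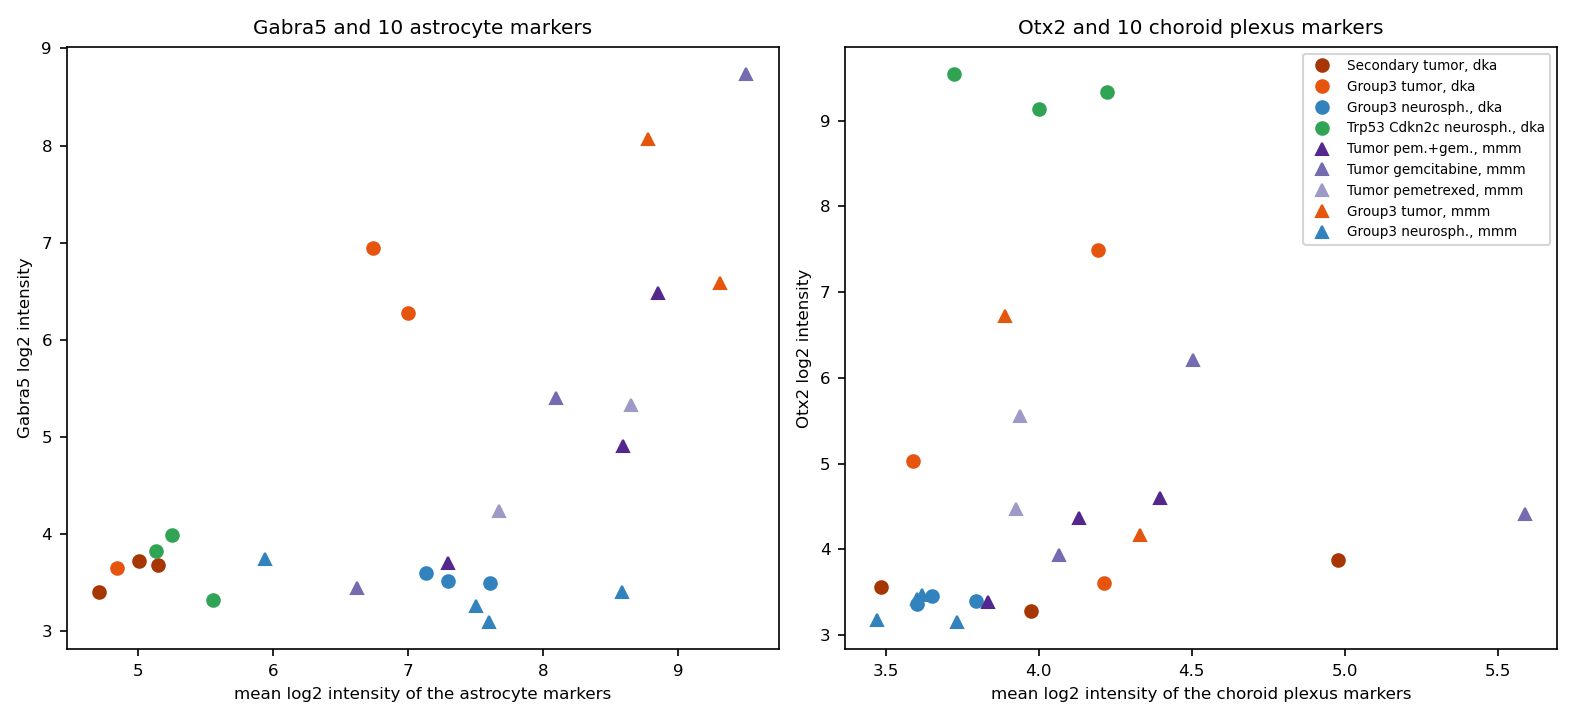
Left, Gabra5 log2 intensity against the mean log2 intensity of 10 astrocyte markers; right, Otx2 against the mean of 10 choroid plexus markers. Each point is an array, circles are dka and triangles mmm. Gabra5 above 6 was seen only where the astrocyte mean was 6.74 or more, while all 7 Group3 neurospheres had Gabra5 under 4 at astrocyte means of 5.94 to 8.59; the 3 Trp53 Cdkn2c neurospheres have Otx2 above 9 at choroid plexus means of 3.72 to 4.22.

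Crx, the photoreceptor factor downstream of Otx2 in the retina, was read by a pair of probe sets and was dim everywhere. The brighter (1449185_PM_at) ranged from 3.30 to 3.91 and the other (1418705_PM_at) from 2.91 to 3.43 over the 26 arrays, always below the array median. In the Trp53 Cdkn2c neurospheres, where Otx2 exceeded 9, the brighter one stood at 3.41, 3.63 and 3.37, within the range of the other groups. None of the 11 comparisons called either, and the widest changes were 0.23 and -0.23.

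The letters TAATCC, the core bound by OTX and CRX homeodomains, were looked for on both strands in the 250 bases before each annotated start in RefSeq (GRCm38.p6). They occurred in 6.25% of all 32851 windows and in 2 of the 15 windows of the 10 genes, 1 of Crx and 1 of 4 of Otx2. Both are shown, 5′ to 3′ in the direction of the gene, because they are the windows of the members that hold the motif; capitals mark the motif, here as its reverse complement GGATTA. In Crx (chr7:15879956-15880205, minus strand) it begins 94 and 21 bases before the start, and in Otx2 (chr14:48665110-48665359, minus strand) 211 bases before it. CACGTG, the E-box of MYC and MAX, occurred in 6.02% of all windows and in 0 of the 15. A match is a run of letters only.
Crx: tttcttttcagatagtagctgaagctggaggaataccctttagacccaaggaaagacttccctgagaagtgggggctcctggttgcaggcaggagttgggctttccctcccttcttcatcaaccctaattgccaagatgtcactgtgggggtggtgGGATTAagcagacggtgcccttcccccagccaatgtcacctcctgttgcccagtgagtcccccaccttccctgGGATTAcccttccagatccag
Otx2: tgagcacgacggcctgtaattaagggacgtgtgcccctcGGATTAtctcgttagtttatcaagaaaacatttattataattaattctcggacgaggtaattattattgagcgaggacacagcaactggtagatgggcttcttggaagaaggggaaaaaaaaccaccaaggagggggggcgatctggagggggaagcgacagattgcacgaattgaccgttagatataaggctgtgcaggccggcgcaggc

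Nrl (1450946_PM_at), the rod-determining partner of Crx, had values of 4.14, 3.80 and 3.70 in dka Group3 neurospheres, against 4.12, 4.66 and 4.47 in Trp53 Cdkn2c neurospheres. The groups overlapped at 1 array and all lay below the array medians, between 3.67 and 4.66 over the series. The change of -0.53 was called (SE 0.15, limma adjusted p = 0.0171), as was -0.53 in Group3 tumors against the same cultures (SE 0.15, adjusted p = 0.0247). Each call was lost on leaving out Trp53 Cdkn2c replicate 2 (-0.41, adjusted p = 0.103, and -0.40, adjusted p = 0.139), and also replicate 3 or some Group3 arrays, with adjusted p from 0.0550 to 0.0894.

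Most genes of the wider photoreceptor list were dim as well. Of 44 measured genes beside the members, 30 were below the array median on all 26 arrays, among them Rcvrn (recoverin), Gnat1 (rod transducin), Sag (rod arrestin), Arr3 (cone arrestin) and Rbp3, the retinoid-binding protein between photoreceptors and pigment epithelium. Rcvrn ranged from 2.94 to 3.70. The mean of the list lay between 3.87 and 4.37 on every array. The other 14 exceeded the median of at least 1 array. Gnb1, a widely used G protein subunit (9.53 to 11.03), and Unc119, a lipid-binding trafficking factor (5.90 to 8.91), did so on every array, and Rpgrip1, a protein of the photoreceptor connecting cilium, on all but 1 (4.65 to 8.54). Genes of more restricted photoreceptor use were among them too, with highest values of 6.88 for Gnat2, the cone transducin, 5.97 for Guca1b, a guanylate cyclase activator, 5.83 for Tulp1 and 5.39 for Abca4.

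**Figure D4:**
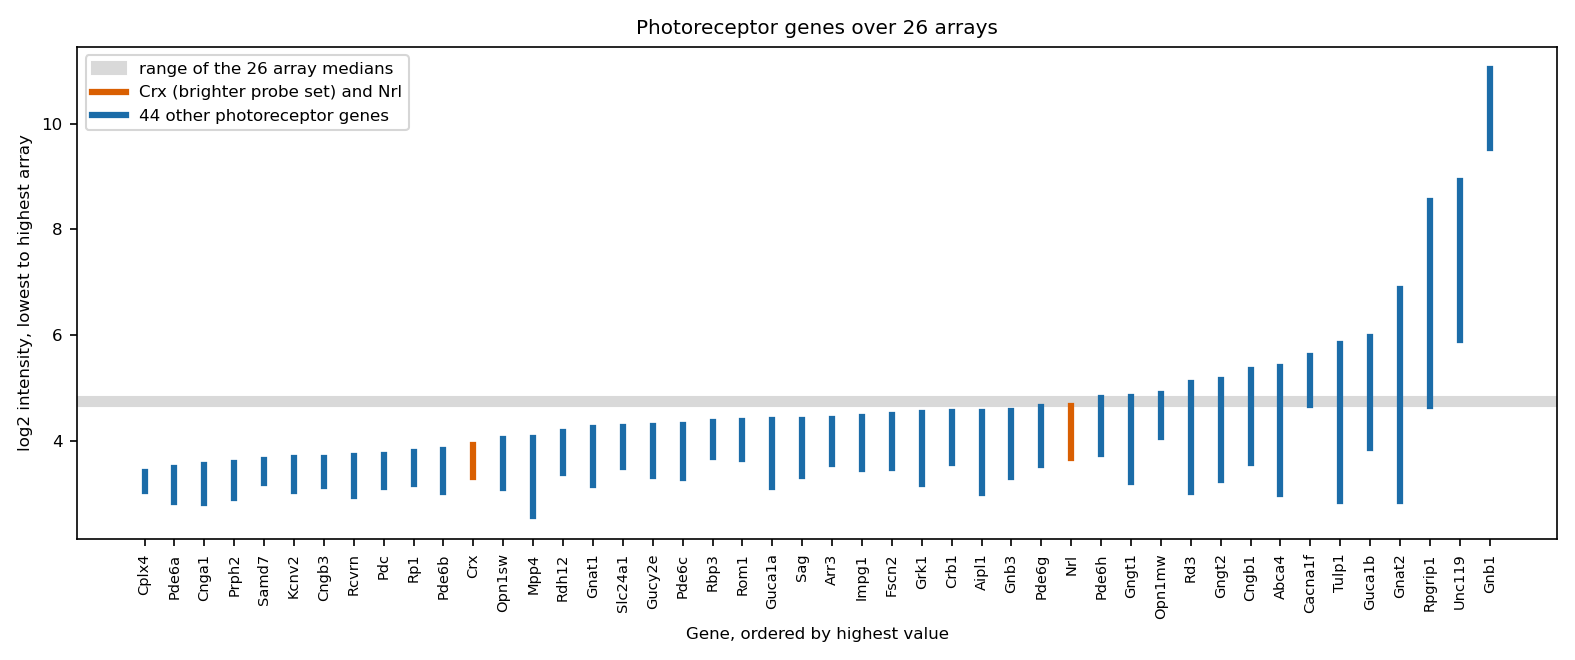
Lowest to highest log2 intensity over the 26 arrays for 44 photoreceptor genes (blue), Crx by its brighter probe set and Nrl (orange), ordered by their highest value; the grey band is the range of the array medians. Crx and Nrl sit with the 30 genes that were below the array median throughout.

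In Group3 neurospheres against Trp53 Cdkn2c neurospheres 2 of the 44 photoreceptor genes rose and 0 fell, where 22.2% of all genes were called by their brightest probe set. Group3 tumors against Group3 neurospheres gave 1 higher and 0 lower under dka (17.3% of all genes called) and 0 higher and 4 lower under mmm (21.0%). The 2 that rose were Gnat2 (log2 change 1.73, SE 0.47, limma adjusted p = 0.0117), and Rdh12, a retinol dehydrogenase (0.43, adjusted p = 0.0405). Gnat2 was among the 4 that fell under mmm (log2 change -2.55, SE 0.50, adjusted p = 0.00153), with Guca1b, Aipl1 and Mpp4. Rdh12, Aipl1 and Mpp4 were among the 30 genes below the array median on all arrays. The list's median changes were 0.12, 0.03 and -0.08 in these 3 comparisons, beside 0.08, 0.0046 and -0.05 over all genes.

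Among transcription factors shared by retina and brain, Neurod1 had the largest change in each of the comparisons named here. Neurod1, a factor of granule neurons and of photoreceptors, fell by 8.37 on the log2 scale in Group3 neurospheres against Trp53 Cdkn2c neurospheres, and it rose by 7.83 in dka and 6.03 in mmm Group3 tumors against Group3 neurospheres (limma adjusted p = 8.64e-06, 4.79e-05 and 0.000783). The mmm cultures were widely spread in Neurod1, with 1 far above the others, as given with Prom1 below. Of the 17 measured eye field and retinal factors, 1 rose and 5 fell in the neurosphere comparison (22.2% of all genes called), with a median change of -0.04. In tumors against Group3 neurospheres 2 rose and 1 fell under dka (17.3% of all genes called). Under mmm 3 rose and 0 fell (21.0%). Of the 17, 5 were below the array median on all arrays. Neurod1 and Pax6 are on the granule neuron list too, of which 9 of 12 fell there. The mean of that list was 4.85 to 5.19 in dka Group3 neurospheres, against 8.03 to 8.45 in Trp53 Cdkn2c neurospheres. Microglia and macrophage markers differed in the same comparison, where 9 of 12 fell, with a list mean of 3.89 to 4.05 in dka Group3 neurospheres, against 6.33 to 6.94 in Trp53 Cdkn2c neurospheres. The part of such cell-type differences in the Otx2, Nrl, Eomes and Prom1 values was not tested, and in bulk RNA fewer cells of a type and less RNA per cell cannot be told apart.

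Gfi1 (1417679_PM_at) and Gfi1b (1420399_PM_at) were at the dim end of the arrays. Gfi1 ranged from 3.01 to 3.39 and Gfi1b from 3.20 to 4.05, below the array median on all 26 arrays. None of the 11 comparisons called either. The largest change was 0.41 for Gfi1b, in pemetrexed plus gemcitabine against gemcitabine (limma adjusted p = 0.719). Of 12 measured genes of their partners and relatives, Snai1 was below the array median on all arrays. In Group3 against Trp53 Cdkn2c neurospheres 0 of the 12 rose and 4 fell, where 22.2% of all genes were called. Kdm1a, the LSD1 demethylase that GFI1 and GFI1B recruit, ranged from 10.3 to 11.6. It fell by 0.96 on the log2 scale in that comparison (SE 0.16, adjusted p = 0.000205). Insm1, a neuroendocrine factor with a related repressor domain, fell by 6.44 in that comparison and rose by 6.22 in dka and 4.23 in mmm tumors against Group3 neurospheres (adjusted p = 8.56e-06, 3.57e-05 and 0.00163).

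Eomes was read by a pair of probe sets, and both were higher in mmm Group3 tumors. The brighter (1435172_PM_at) had 8.52 and 7.62 in mmm tumors, against 3.95, 5.01, 4.17 and 3.75 in mmm Group3 neurospheres. The groups did not overlap, and the change was 3.85 (SE 0.61, limma adjusted p = 0.000264). The other (1426001_PM_at) had 7.04 and 6.89 in those tumors, against 4.42, 4.47, 4.15 and 4.63 in the cultures (log2 change 2.55, SE 0.47, adjusted p = 0.000895). Without neurosphere replicate 7 the changes were 3.69 (adjusted p = 0.001) and 2.62 (adjusted p = 0.00193).

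Under dka 1 of the Eomes probe sets passed. By 1435172_PM_at the values were 5.11, 5.79 and 7.0 in tumors, against 4.28, 4.22 and 4.57 in Group3 neurospheres, without overlap (log2 change 1.60, SE 0.57, limma adjusted p = 0.0715). Probe set 1426001_PM_at passed (5.29, 5.73 and 6.84 against 4.23, 3.98 and 4.24, log2 change 1.80, SE 0.44, adjusted p = 0.00875), but not without tumor replicate 3 (1.36, adjusted p = 0.0557). The test of mmm minus dka gave 2.25 for 1435172_PM_at (SE 0.84, adjusted p = 0.111; 2.09 and 0.185 without mmm neurosphere replicate 7) and 0.75 for 1426001_PM_at (SE 0.64, adjusted p = 0.524). In this test 0 of the 13 member probe sets passed with limma, where 6.35% of all probe sets were called. At an unadjusted p under 0.05 there was 1, beside 10352 of all 45037 probe sets.

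Group3 neurospheres had Eomes below Trp53 Cdkn2c neurospheres by 1426001_PM_at, at 4.23, 3.98 and 4.24 against 6.56, 5.33 and 4.47 (log2 change -1.30, SE 0.44, limma adjusted p = 0.0412). The groups did not overlap, but the Trp53 Cdkn2c cultures were spread out, and the change was -0.75 without their replicate 1 (adjusted p = 0.272). The call was also lost without Trp53 Cdkn2c replicate 2 or any of the 3 Group3 arrays, with adjusted p from 0.0752 to 0.111. Probe set 1435172_PM_at did not pass (log2 change -1.44, SE 0.57, adjusted p = 0.0863). Secondary tumors had 5.48, 4.01 and 5.10 by that probe set, against 5.11, 5.79 and 7.0 in Group3 tumors, with overlap (log2 change -1.10, SE 0.57, adjusted p = 0.412).

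T cells and natural killer cells also express Eomes. Of 12 markers of these cells 8 were below the array median on all arrays, with Cd3g between 3.09 and 3.61. The mean of the list was 3.82 to 3.85 in mmm tumors, against 3.77 to 3.92 in mmm Group3 neurospheres, and its part in the Eomes values was not tested. Of 4 measured unipolar brush cell markers besides Eomes, 2 rose and 1 fell in mmm tumors against Group3 neurospheres, where 21.0% of all genes were called. Those that rose were Calb2 (calretinin, log2 change 2.56, SE 0.74, limma adjusted p = 0.0202) and Plcb4 (1.84, SE 0.40, adjusted p = 0.00359), and Wls fell (-2.97, SE 0.51, adjusted p = 0.000513). The remaining marker, Lmx1a, was below the array median on all arrays. Under dka 0 rose and 1 fell, again Wls (-3.05, SE 0.48, adjusted p = 0.000247; 17.3% of all genes called). Of 14 measured T-box genes besides Eomes 1 rose and 0 fell in mmm tumors, Tbr1 (log2 change 1.58, SE 0.33, adjusted p = 0.00252). Of 6 measured genes on the list of human Group 4 markers, Eomes included, 5 rose in mmm tumors (21.0% of all genes called), with the potassium channel gene Kcna1 at 3.87 (SE 0.92, adjusted p = 0.00622) and the netrin receptor gene Unc5d at 2.37 (SE 0.36, adjusted p = 0.000167). Under dka 2 of the 6 rose (17.3% of all genes called), Kcna1 (2.75, adjusted p = 0.0386) and Khdrbs2 (1.39, adjusted p = 0.0191).

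Npr3 rose in Group3 tumors against Group3 neurospheres by 2 of its 3 probe sets under dka and 1 under mmm. By its brightest probe set (1435184_PM_at), dka Group3 tumors had 8.53, 8.23 and 8.35, against 4.03, 4.70 and 5.52 in Group3 neurospheres. Every tumor lay well above every culture (log2 change 3.62, SE 0.70, limma adjusted p = 0.00141). Under mmm the untreated tumors had 8.07 and 8.28, against 4.6, 4.65, 4.91 and 4.25 in the cultures (log2 change 3.57, SE 0.74, adjusted p = 0.00233; 3.45 and 0.00685 without neurosphere replicate 7). The other probe sets did not pass under mmm, with 0.95 for 1448024_PM_at (SE 0.47, adjusted p = 0.179) and 0.59 for 1450286_PM_at (SE 0.33, adjusted p = 0.237). Both calls of 1435184_PM_at held when any 1 array was left out.

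The dka tumors, at those 3 values, were also above the Trp53 Cdkn2c neurospheres, at 4.77, 6.34 and 5.33, on every array (log2 change 2.89, SE 0.70, limma adjusted p = 0.00747). Group3 neurospheres overlapped those cultures (log2 change -0.73, SE 0.70, adjusted p = 0.542). Secondary tumors had 5.71, 8.52 and 8.63, so replicates 2 and 3 matched the Group3 tumors and replicate 1 was near the cultures. Against Group3 neurospheres the secondary tumors were higher (log2 change 2.87, SE 0.70, adjusted p = 0.0052).

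The other Npr3 probe sets were dimmer, and in secondary against Group3 tumors the 3 did not run the same way. By 1435184_PM_at the change was -0.75 (SE 0.70, limma adjusted p = 0.709) and by 1450286_PM_at 0.09 (SE 0.31, adjusted p = 0.945). Probe set 1448024_PM_at had 4.53, 6.84 and 6.92 in secondary tumors, against 4.67, 4.98 and 5.44 in Group3 tumors. Again secondary replicates 2 and 3 were high and replicate 1 was not, and the change of 1.07 did not pass (SE 0.44, limma adjusted p = 0.27). It was 1.85 without secondary replicate 1 (adjusted p = 0.00224), which rests on 2 closely alike arrays. Secondary replicates 2 and 3 differed least of all replicate pairs in the series (SD over probe sets 0.291), and replicate 1 differed from them by 0.659 and 0.665. Against Group3 neurospheres, at 4.08, 3.91 and 4.10, secondary tumors passed by this probe set (log2 change 2.07, SE 0.44, adjusted p = 0.00205) and by 1450286_PM_at (1.12, SE 0.31, adjusted p = 0.0129). The last of these was not called without neurosphere replicate 2 (0.96, adjusted p = 0.065) or secondary replicate 2 (0.70, adjusted p = 0.0978). Probe set 1450286_PM_at also passed in dka tumors (log2 change 1.02, SE 0.31, adjusted p = 0.0321), a call lost on leaving out any 1 of 5 of the 6 arrays (adjusted p 0.0667 to 0.135). The probe sets disagreed in Group3 tumors, where 1435184_PM_at was called and 1448024_PM_at was not (1.0, SE 0.44, adjusted p = 0.155).

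Of 5 measured genes of natriuretic ligands and other receptors, 0 passed with limma in tumors against Group3 neurospheres under either code. Of all genes 17.3% were called there under dka and 21.0% under mmm. The mean of the list was 4.11 to 4.67 in dka tumors, against 4.17 to 4.41 in dka Group3 neurospheres, and 4.58 to 4.64 in mmm tumors, against 3.87 to 4.42 in mmm Group3 neurospheres, so the groups did not overlap under mmm. Nppa and Nppc, which encode the atrial and C-type peptides, fell by 1.64 (SE 0.25, limma adjusted p = 0.000106) and 1.43 (SE 0.35, adjusted p = 0.00559) on the log2 scale in Group3 against Trp53 Cdkn2c neurospheres, and Npr1 rose by 0.40 (SE 0.12, adjusted p = 0.0205). Nppb and the receptor gene Npr1 were below the array median on all 26 arrays, while Npr2, the C-type peptide receptor, ranged from 5.52 to 8.72.

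Gabra5 (1433602_PM_at) had 6.59 and 8.07 in mmm Group3 tumors, against 3.74, 3.26, 3.41 and 3.10 in mmm Group3 neurospheres. The groups did not overlap (log2 change 3.95, SE 1.01, limma adjusted p = 0.01). Without tumor replicate 5, which leaves 1 tumor array, the change was 3.21 and the call did not hold. Without neurosphere replicate 7 it was 3.86 (adjusted p = 0.023). Under dka the tumors had 6.94, 3.65 and 6.28, against 3.50, 3.52 and 3.60 in Group3 neurospheres. Tumor replicate 2 sat at the level of the cultures and the others well above (log2 change 2.08, SE 0.95, adjusted p = 0.171; without that replicate 3.07, adjusted p = 0.0484). Secondary tumors, at 3.40, 3.72 and 3.68, were all as dim as the cultures, with a change of -2.02 against Group3 tumors (SE 0.95, adjusted p = 0.349).

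Astrocyte and oligodendrocyte markers also varied among the tumors. Gfap, the astrocyte filament gene, had 7.40, 3.58 and 7.16 in the dka tumors and 9.01 and 8.62 in the untreated mmm tumors, so it was low in the same dka tumor as Gabra5, but in the mmm pair the tumor with the higher Gabra5 had the lower Gfap. In gemcitabine tumors Gabra5 was 5.40, 3.44 and 8.73 and Gfap 7.95, 4.95 and 10.1. The mean of 10 astrocyte markers was 6.74, 4.84 and 7.0 in dka tumors and 9.31 and 8.78 in untreated mmm tumors. It was also 7.13 to 7.61 in dka Group3 neurospheres, where Gabra5 was at most 3.60. Of the astrocyte list 3 of 10 rose and 1 fell in mmm tumors against neurospheres (21.0% of all genes called). Under dka 0 rose and 3 fell (17.3% of all genes called). The mean of 10 oligodendrocyte markers was 5.36, 4.42 and 8.27 in dka tumors, lowest in replicate 2 as for Gabra5, and 9.22 and 7.73 in untreated mmm tumors. Of that list 6 rose and 0 fell in mmm tumors against neurospheres (21.0%), and 1 rose and 2 fell under dka (17.3%). The part of both cell types in the Gabra5 values was not tested.

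Other GABA-A subunits rose with Gabra5 in mmm tumors, 6 of 14 measured against 21.0% of all genes called. Gabrb1 had the largest change at 5.29 (SE 0.92, limma adjusted p = 0.000614), then Gabrb2 at 3.14 (SE 0.79, adjusted p = 0.00917) and Gabra3 at 3.02 (SE 0.73, adjusted p = 0.00719). Gabrb1 stood at 8.71 and 9.49 in these tumors, against 3.96, 4.01, 3.81 and 3.46 in the cultures. Under dka, where 17.3% of all genes were called, 0 of the 14 rose and Gabrg1 fell (-3.45, SE 0.79, adjusted p = 0.00563). Gabra6, the subunit of mature granule neurons, was below the array median on all arrays.

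Prom1 (1419700_PM_a_at) was the brightest member and was high in all tumors. Group3 neurospheres of dka had 5.02, 5.47 and 6.99, against 8.74, 8.96 and 8.62 in Trp53 Cdkn2c neurospheres. The groups did not overlap (log2 change -2.94, SE 0.94, limma adjusted p = 0.0318), although the call was lost on leaving out any 1 array other than Group3 replicate 3 (adjusted p 0.0639 to 0.119). Group3 tumors had 10.4, 9.18 and 9.29, above all Group3 neurospheres (log2 change 3.79, SE 0.94, adjusted p = 0.0101). Secondary tumors had 9.73, 10.4 and 10.8 and were also above those cultures (log2 change 4.48, SE 0.94, adjusted p = 0.00177), but overlapped the Group3 tumors (0.70, SE 0.94, adjusted p = 0.831). The mean of 12 neural stem cell markers was 8.75 to 9.14 in dka Group3 neurospheres, above the 6.82 to 7.69 of Trp53 Cdkn2c neurospheres. It was 6.12 to 7.35 in dka Group3 tumors and 6.00 to 6.53 in secondary tumors. Its relation to the Prom1 values was not tested.

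Under mmm the 4 Group3 neurosphere arrays split in Prom1. The untreated tumors had 9.07 and 9.09, against 8.67 and 8.39 in neurosphere replicates 4 and 5 and 3.53 and 4.19 in replicates 6 and 7. Tumors minus neurospheres was 2.89 (SE 1.0, limma adjusted p = 0.0524), or 2.22 without neurosphere replicate 7 (adjusted p = 0.145), and it passed without neurosphere replicate 4 (3.71, adjusted p = 0.00744) or 5 (3.62, adjusted p = 0.0116). Neurod1 was 2.23 and 8.93 in replicates 4 and 5 and 2.34 and 4.51 in replicates 6 and 7. What lay behind the Prom1 split was not tested.

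Markers of immune and vessel cells also differed between tumors and Group3 neurospheres. Of 12 microglia and macrophage markers, 9 rose in dka and 12 in mmm tumors against Group3 neurospheres. Of 11 endothelial markers 9 rose under each code. Of all genes 17.3% were called under dka and 21.0% under mmm. The mean of the microglia list was 6.51 to 7.01 in dka tumors. It was 3.89 to 4.05 in dka Group3 neurospheres and 6.33 to 6.94 in Trp53 Cdkn2c neurospheres. In Group3 tumors against Trp53 Cdkn2c neurospheres 0 of the 12 microglia and macrophage markers were called (15.4% of all genes called). Of the 11 endothelial markers 4 rose and 0 fell in that comparison. The mean of the endothelial list was 4.96 to 6.39 in dka tumors, against 4.59 to 5.08 in Trp53 Cdkn2c neurospheres. The part of these cells in the Npr3, Eomes, Gabra5 and Prom1 values was not tested.

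The drug comparisons asked whether these genes differed after pemetrexed, gemcitabine or both, and limma called 0 of the 13 probe sets in each of the 5. Against untreated tumors 2 had an unadjusted limma p under 0.05 with pemetrexed, as did 1971 of all 45037 probe sets. With gemcitabine 2 did (3761 of all), and with the combination 3 (3335 of all). After adjustment 0.00444%, 0.00888% and 0.0688% of all probe sets were called in these 3 comparisons. The combination gave 2 at an unadjusted p under 0.05 against pemetrexed (1181 of all) and 3 against gemcitabine (2467 of all). After adjustment 0.00666% and 0.0% of all probe sets were called there. Only 2 untreated tumors served as controls for the first 3 comparisons, which share them.

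Npr3 by 1435184_PM_at was lowest in the combination among the tumor groups of mmm, at 6.65, 7.29 and 5.0. It was 8.93, 9.11 and 6.89 with gemcitabine, 7.84 and 8.21 with pemetrexed and 8.07 and 8.28 in untreated tumors. The combination did not overlap the untreated or pemetrexed tumors but overlapped gemcitabine replicate 3. Its change was -1.86 against untreated tumors (95% interval -3.49 to -0.24, limma adjusted p = 0.598), -1.71 against pemetrexed (-3.33 to -0.09, adjusted p = 1.0) and -2.0 against gemcitabine (-3.45 to -0.55, adjusted p = 0.752). The other Npr3 probe sets changed less. By 1448024_PM_at the changes were -0.57, -0.51 and -0.82 in the same order, and by 1450286_PM_at -0.06, -0.76 and -0.72. By 1450286_PM_at the combination overlapped the untreated tumors.

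Eomes was highest in the untreated tumors. By 1435172_PM_at the combination had 6.23, 7.11 and 7.43, gemcitabine 6.67, 6.40 and 5.42, pemetrexed 7.07 and 6.61, and untreated tumors 8.52 and 7.62. No treated array reached the untreated pair, with changes of -1.15 (95% interval -2.49 to 0.20, limma adjusted p = 0.748) for the combination, -1.90 (-3.25 to -0.56, adjusted p = 0.445) for gemcitabine and -1.23 (-2.70 to 0.25, adjusted p = 1.0) for pemetrexed. Probe set 1426001_PM_at gave -0.78, -1.52 and -1.28 in the same order.

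Gabra5 and Otx2 were scattered within the drug groups. Gabra5 had 3.71, 6.48 and 4.91 in combination tumors, 5.40, 3.44 and 8.73 with gemcitabine, 4.23 and 5.33 with pemetrexed and 6.59 and 8.07 in untreated tumors. Gemcitabine alone covered nearly the whole range of Gabra5 in the series, and it overlapped the untreated pair. The combination (log2 change -2.30, 95% interval -4.52 to -0.07, limma adjusted p = 0.655) and pemetrexed (-2.55, -4.98 to -0.11, adjusted p = 1.0) did not. Otx2 had 4.37, 4.6 and 3.39 in combination tumors, 3.94, 4.41 and 6.21 with gemcitabine, 4.47 and 5.56 with pemetrexed and 6.72 and 4.17 in untreated tumors, and all 3 drug groups overlapped the untreated pair. Prom1 stayed between 9.07 and 9.80 on all 10 of these arrays. With 2 or 3 arrays a group the intervals were wide, from -2.30 to 1.12 for Otx2 with gemcitabine and from -1.85 to 2.98 for Prom1 with pemetrexed.

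The genes most like each varying member were found by the lower of its Pearson correlations over the 12 dka and the 14 mmm arrays, which differ in group as well as in level. Otx2 was closest to Pvalb, which encodes parvalbumin (r = 0.90 under dka and 0.89 under mmm), the microRNA host gene Mir124-2hg (0.88 and 0.89) and Zmat4 (0.86 and 0.86). Npr3 by 1435184_PM_at was closest to Wrap73 (0.92 and 0.95) and Umodl1 (0.89 and 0.92). Gabra5 was closest to Gfap by another of its probe sets (0.93 and 0.91) and to Hpcal4 (0.90 and 0.94). Prom1 was closest to the amino acid transporter gene Slc6a15 (0.93 and 0.94) and Arfgef3 (0.94 and 0.90). For Eomes the nearest were Klhdc8a (0.85 and 0.83) by 1435172_PM_at and Trpc4ap (0.83 and 0.85) by 1426001_PM_at. These values are descriptions of arrays that share groups, and no other member appeared because members were left out of the search.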

How the data were processed

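Analysis started from the log2 intensities that the authors deposited for 26 mouse HT MG-430 PM arrays. The submitters' processing notes name RMA, with no version, and Partek 6.6. Per the labels RNA was extracted with Trizol, amplified with NuGEN Ovation Pico WTA V2 and labelled with NuGEN Encore Biotin. Of 45141 probe sets 104 controls were left out; 28898 of the rest had 1 gene symbol, 551 several and 15588 none. Gene names came from the platform annotation; 28689 Entrez identifiers were found in RefSeq and 0 symbols changed. All 26 arrays were fitted in limma 3.58.1 (R 4.3.3) with 9 means of group and title code, with Benjamini-Hochberg adjustment over 45037 probe sets. SE is the moderated standard error, and every p value comes from limma. The 10 genes and the 21 gene lists (266 entries, each gene read by its brightest probe set) were chosen with earlier results of these data known. Named genes are all members, up to 4 list genes past 0.05 in a comparison or the 2 largest changes where none passed, list genes whose levels are described, and the genes most like a member whose group means span at least 2 units. The levels of Gfap, Ttr, Rcvrn, Gnb1, Unc119, Rpgrip1, Gnat2, Guca1b, Tulp1, Abca4, Snai1, Cd3g, Gabra6, Npr1, Npr2 and Nppb were picked for description after their values were seen. The fit was checked on simulated arrays. Alternatives were quantile normalization, only arrays of 1 title code, no dim probe sets, the brightest probe set per gene, an intensity trend with robust variance, and leaving out each array. Replicates of a group differed by an SD over probe sets of 0.291 to 0.911, and no pair was identical. The number of arrays limits the precision. Figures used Python 3.11.15 and matplotlib 3.10.9.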

Additional observations from a re-analysis of the deposited data

Results flagged for a closer look

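In the only set of 4 or more arrays of 1 group and code, the mmm Group3 neurospheres, each of the 13 member probe sets was checked for an array far from the rest. Gfi1 (1417679_PM_at) stood out in replicate 4, at 3.34 against 3.18, 3.17 and 3.14 in the others, all far below the array medians. Chance marks about 1 in 20 such sets. None of the 13 probe sets passed the test of a difference between the codes.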

How the results depend on the processing

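No member reversed its direction under any alternative among the called changes and those of at least 1 log2 unit. The number of called member probe sets in Group3 against Trp53 Cdkn2c neurospheres was 4, and it was 2 with arrays of the title code only and 1 to 2 on leaving out 1 array, with Otx2 called each time. In dka Group3 tumors against Group3 neurospheres it was 4, 2 with the brightest probe set per gene, and 2 to 5 on leaving out 1 array. Secondary tumors against Group3 neurospheres gave 4, 2 without dim probe sets, 2 with the brightest probe set per gene, and 3 to 4 on leaving out 1 array. Secondary tumors against Group3 tumors gave 0, and 0 to 1 on leaving out 1 array. Dim probe sets and second probe sets of a gene cannot be counted where they are left out, which accounts for part of those drops; the cause of the others was not tested. Among single probe sets leaving out 1 array ended a call 27 times and made one 7 times of 274; the title code setting ended 4 calls and quantile normalization 1 (Eomes 1426001_PM_at, -1.20). The 5 drug comparisons and the difference between codes stayed at 0 under every alternative that was run. Prom1 in mmm tumors against neurospheres (2.89) was called without dim probe sets and with the brightest probe set per gene (adjusted p = 0.0369 and 0.0455). No paired analysis was possible because replicate numbers were given in deposit order only and pair no arrays. Dim probe sets, here Crx, Nrl, Gfi1 and Gfi1b, can hide small changes, and with 2 untreated mmm tumors only large drug effects could pass.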

Other observations

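Some marker genes outside the named set differed between the title codes, in a test that called 7.82% of all genes. The tumor minus neurosphere change was higher under mmm for 2 of 5 WNT markers, 1 of 6 other Group 3 markers and 3 of 14 GABA-A subunits. It was also higher for 5 of 12 microglia and macrophage markers, and lower for 0 genes of these lists. Gad1, which makes the transmitter GABA and is used to mark human WNT tumors, fell by 4.34 on the log2 scale in dka tumors against Group3 neurospheres and rose by 5.09 in mmm tumors, and the test of mmm minus dka gave 9.43 (SE 1.78, limma adjusted p = 0.00617). Pcdh20, a protocadherin gene on the list of other Group 3 markers, rose by 2.14 in mmm tumors (adjusted p = 0.000542), with a difference between codes of 2.06 (SE 0.51, adjusted p = 0.0219). The subunit genes Gabrb1, Gabra2 and Gabrg1 also differed between codes, by 4.64, 4.52 and 4.75 (adjusted p = 0.0359, 0.0181 and 0.0209). Title code cannot be told apart from whatever else differed between those sets of arrays. Their value ranges differed too, so sizes are not directly comparable between the codes, and these tests kept Group3 neurosphere replicate 7.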
